A study of Mus musculus with 4 samples.

Results

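The Rab family of small GTPases was followed in pancreatic islets, the small endocrine organs scattered through the pancreas, from mice without and with the membrane protein gene Tspan7. Members were the rows of the deposited count table whose mouse gene symbol is Rab, a number and at most a letter and a further digit, which leaves out Rab effectors and pseudogenes. This gave 59 genes out of 52636 in the table, and 52 of them had enough counts to be tested. They lie on 18 chromosomes, and 4 (Rab9, Rab9b, Rab33a and Rab39b) are X-linked, as Tspan7 is.

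The study comprises 2 libraries from Tspan7 knockout islets (KO, genotype Tspan7 y/-, a male hemizygous for the null allele) and 2 from wild-type islets (WT). Islets went into Trizol without further treatment named in the labels, and total RNA was made into strand-marking libraries. Age is not given in the sources used here, and no label says whether a library is 1 animal or a pool, so p-values measure the spread between libraries, which may be technical. The series text calls the animals knockdown, while the sample labels say knockout. The KO libraries held 9377220 (replicate 1) and 7855665 (replicate 2) counts and the WT libraries 8704271 and 9140275.

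Tspan7 had 3 and 2 counts in the KO libraries, against 1924 and 1795 in the WT libraries, which matches the labels. All 10 endocrine markers, hormones included, were above 3 counts in every library, as the tissue label requires. Digestive enzyme genes of acinar cells, the exocrine cells around islets, summed to 1163 and 5004 CPM, counts in a library scaled to 1000000, in KO replicates 1 and 2, against 2413 and 60.6 in WT replicates 1 and 2. Of these acinar markers 7 of 7 tested had a positive fold change, KO over WT (median 1.28 in log2). Macrophage markers summed to 58.5 and 44.0 CPM in KO, against 80.1 and 73.0 CPM in WT, and 7 of 7 tested had a negative fold change. Endothelial markers summed to 286 and 307 CPM in KO, against 311 and 341 CPM in WT (5 of 6 negative). Ductal markers summed to 207 and 205 CPM in KO, against 213 and 392 CPM in WT (3 of 5 negative), and stellate and fibroblast markers to 31.6 and 33.6 CPM in KO, against 35.3 and 56.1 CPM in WT (4 of 5 negative). Bulk counts cannot tell fewer cells of a type from less RNA per cell.

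Rab GTPases switch between a GTP-bound form that recruits effectors to a membrane and a GDP-bound form that is extracted from it, and each is found on a characteristic set of membranes. Guanine nucleotide exchange factors turn them on, GTPase-activating proteins turn them off, and prenyl groups on their tails hold them in the bilayer. In beta cells, Rab3 and Rab27 proteins sit on insulin granules and take part in the docking and release of granules, which is the subject of the study.

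Many Rab genes come in close paralogs, so whether a read can be assigned to 1 member matters for every value that follows. The 4 Rab3 genes are shown because the exocytic results turn on them. The stretch below is coding sequence around the switch II region, where the nucleotide-binding fold is most alike. It was read from GENCODE M21 transcripts and runs over positions 196 to 276 of the coding sequence in Rab3a (chromosome 8), Rab3b (chromosome 4) and Rab3d (chromosome 9), and 220 to 300 in Rab3c (chromosome 13). Capitals mark bases that differ from Rab3a.
Rab3a: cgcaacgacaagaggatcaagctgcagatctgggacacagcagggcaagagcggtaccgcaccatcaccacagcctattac
Rab3b: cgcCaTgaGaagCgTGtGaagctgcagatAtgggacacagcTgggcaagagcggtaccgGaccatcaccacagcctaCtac
Rab3c: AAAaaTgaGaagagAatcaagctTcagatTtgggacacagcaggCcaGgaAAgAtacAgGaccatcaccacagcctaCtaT
Rab3d: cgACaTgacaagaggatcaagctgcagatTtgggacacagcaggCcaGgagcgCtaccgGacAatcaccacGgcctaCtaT

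Over these 81 bases Rab3b differed from Rab3a at 11 positions, Rab3d at 12 and Rab3c at 17, and the longest run shared with Rab3a was 17, 23 and 17 bases. Whole coding sequences were 74.4% to 78.1% identical between Rab3 pairs and 69.2% identical between Rab27a and Rab27b. No 50-base word of a Rab3 transcript occurred in another member's transcripts. Over the family, 6 members shared any such word with another member, at most 0.956% of their words (Rab4b). Reads can thus be told apart between Rab paralogs, as far as words of 50 bases represent the reads, whose length is not given in the sources used here.

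Sharing with other genes was larger for 5 members with at least 20% of their exonic bases inside another gene's exons. These were Rab24 (62.4%, Prelid1 on the opposite strand), Rab2b (64.0%, Tox4 and Gm43766 on the opposite strand), Rab20 (25.6%, E230013L22Rik on the opposite strand), Rab43 (75.4%, Gm45140 on the same strand) and Rab4b (65.0%, Gm21983 and Mir3101 on the same strand). Whether counting used strand is not given in the sources used here, so counts of these 5 are uncertain. Just under that threshold, with overlap on the opposite strand, were Rab6a (19.0%, Mrpl48), Rab33b (18.7%, Gm38160) and Rab39b (18.6%, Gm15063). Their counts are open to the same doubt in part. Rab7 and Rab11b shared 12.7% and 13.6% of their words with other genes, pseudogenes of their own (Rab7-ps1, Rab11b-ps2) among them.

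Islets expressed most of the family, and a few members made up most of it. To compare genes, counts were divided by exonic length and scaled to a sum of 1000000 in every library (TPM). Of 59 members, 37 averaged at least 10 TPM over the 4 libraries and 7 averaged below 1 TPM. The 59 together summed to 3119 and 2881 TPM in KO, against 3116 and 2986 TPM in WT, or 0.409% and 0.407% of counts in KO and 0.422% and 0.405% in WT. The 10 highest members held 65.2% and 66.5% of the family level in KO and 67.0% and 65.4% in WT. Among tested members, the median stood at percentile 70.5 of all tested genes.

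The order was led by genes of the early secretory pathway and the lysosome. Rab2a, which acts between the endoplasmic reticulum and the Golgi, averaged 392 ± 16.2 TPM in KO and 411 ± 21.0 TPM in WT (SD, n = 2 each, as throughout). Rab1a, needed for transport from the endoplasmic reticulum to the Golgi, averaged 350 ± 0.409 TPM in KO and 358 ± 23.1 TPM in WT. Rab7, which directs late endosomes to lysosomes, averaged 324 ± 9.82 TPM in KO and 339 ± 0.353 TPM in WT. The ranges of these 3 over the 4 libraries did not overlap in TPM. But the lead rests on the gene length used, since Rab1a stood above Rab2a with the longest transcript as length. TPM was not scaled between libraries beyond its common sum, so SDs in TPM depend on that unit. In CPM scaled between libraries with TMM factors, Rab1a averaged 506 ± 54.4 in KO and 514 ± 54.8 in WT.

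Rab6a, a Golgi Rab, and Rab27a, the main Rab27 of insulin granules, followed at almost the same level. Rab6a averaged 209 ± 30.9 TPM in KO and 193 ± 29.8 TPM in WT, and Rab27a 199 ± 9.05 TPM in KO and 201 ± 18.0 TPM in WT. Their ranges overlapped, so their order is not resolved. Rab10, which moves exocytic vesicles to the plasma membrane, came next at 150 ± 9.83 TPM in KO and 158 ± 2.03 TPM in WT.

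Rab11a, of recycling endosomes, and Rab3d overlapped each other. Rab11a averaged 103 ± 5.33 TPM in KO and 104 ± 0.789 TPM in WT, and Rab3d 92.3 ± 5.62 TPM in KO and 112 ± 15.4 TPM in WT. Rab39b, an X-linked Rab best known from neurons, and Rab5a, which drives early endosome fusion, closed the leading 10 and also overlapped. Rab39b averaged 75.4 ± 2.32 TPM in KO and 74.4 ± 6.94 TPM in WT, and Rab5a 80.0 ± 4.51 TPM in KO and 68.8 ± 13.3 TPM in WT. The lowest of these 10 stood at percentile 90.1 of tested genes. With the longest transcript as length, Rab39b averaged 63.7 TPM over the 4 libraries and fell to rank 13. Rab14 then rose from rank 20 (40.6 TPM) to rank 10 (93.8 TPM), so the last places of the leading 10 depend on the length used. Across the whole order, 49 of 58 neighbouring pairs overlapped, so lower ranks are approximate.

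**Figure D1:**
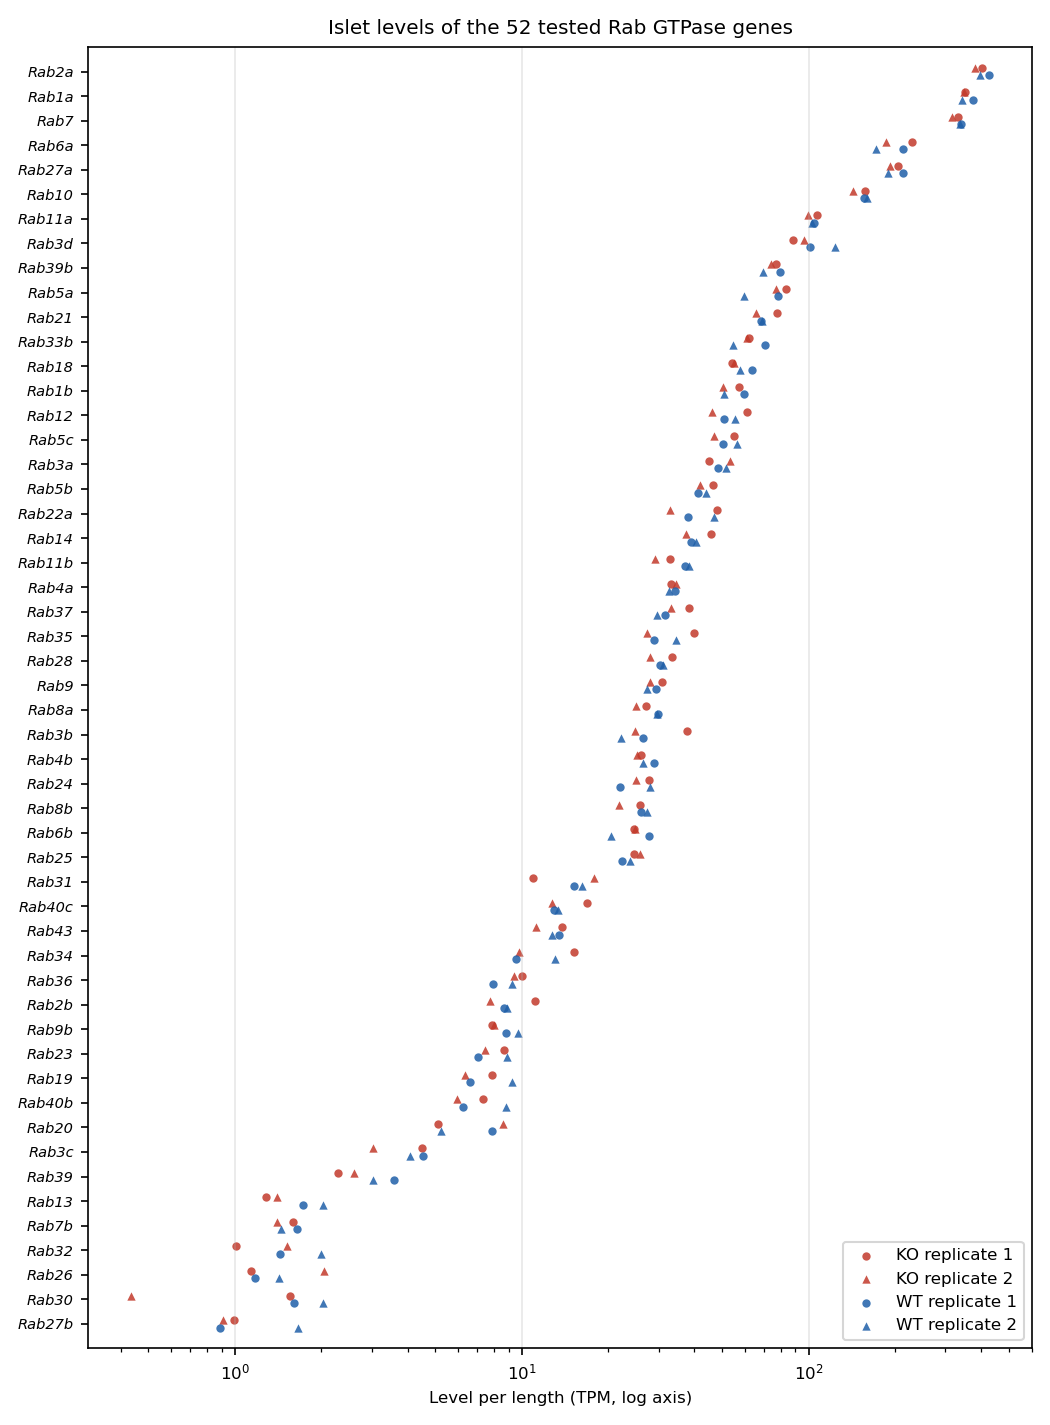
Level per length of the 52 tested Rab genes in each library, in TPM on a log axis, sorted by the mean over 4 libraries; red symbols are KO, blue symbols are WT, circles are replicate 1 and triangles replicate 2. Levels run from 401.8 TPM for Rab2a to 1.11 TPM for Rab27b, a far wider spread than that between libraries of a gene, with Rab30 in KO replicate 2 (0.436 TPM) standing apart from its other 3 values.

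The 7 members not tested had between 0 and 9 counts per library and at most 20 in all 4. They were Rab15, Rab17, an epithelial Rab, Rab29, Rab33a, Rab38, a Rab of pigment granules, Rab42 and Rab44. Rab44 had 0 and 0 counts in KO and 1 and 0 in WT, and Rab33a had 0 and 1 in KO and 0 and 1 in WT. A count of 3, taken as the floor, corresponds to 0.320 to 0.382 CPM at these depths, so absence from a minor cell type is not shown.

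Between paralogs, levels per length were often far apart. Rab27a stood 206 and 212 times above Rab27b in the KO libraries and 242 and 114 times above it in the WT libraries. Rab27b, which is known from exocrine and other secretory cells, had 36 and 30 counts in KO and 31 and 61 in WT. Rab7 exceeded Rab7b 206-fold to 234-fold over the 4 libraries. Rab2a made up 97.3% to 98.01% of the Rab2 level, Rab1a 86.0% to 87.4% of the Rab1 level and Rab6a 88.2% to 90.3% of the Rab6 level. Shares of the Rab4, Rab5 and Rab8 paralogs were closer to even, with Rab8a at 51.3% to 53.4% of Rab8.

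Within the Rab3 genes, Rab3d rather than Rab3a had the highest level. Rab3d, best known from the granules of exocrine cells, took 50.4% and 54.3% of the Rab3 level in KO and 56.1% and 61.3% in WT. Rab3a, the main Rab3 of synaptic vesicles, took 25.6% and 30.0% in KO and 26.8% and 25.6% in WT. Rab3b took 21.5% and 14.0% in KO and 14.6% and 11.1% in WT, and Rab3c stayed at 1.71% to 2.56% in all 4 libraries. Rab3d was 1.81 to 2.40 times Rab3a in single libraries, and 1.56 times on average with the longest transcript as length. Acinar cells express Rab3d too. Scaled between libraries with TMM factors, Rab3d measured 130 and 166 CPM in KO replicates 1 and 2. In WT replicates 1 and 2 it measured 165 and 189 CPM on that scale. Acinar markers, without TMM factors, summed to 1163 and 5004 CPM in KO and 2413 and 60.6 CPM in WT, in the same order. Rab3d was highest in the library with the lowest acinar sum, and among the other 3 libraries it was lowest where that sum was lowest. The part of acinar RNA in its level was not tested.

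**Figure D2:**
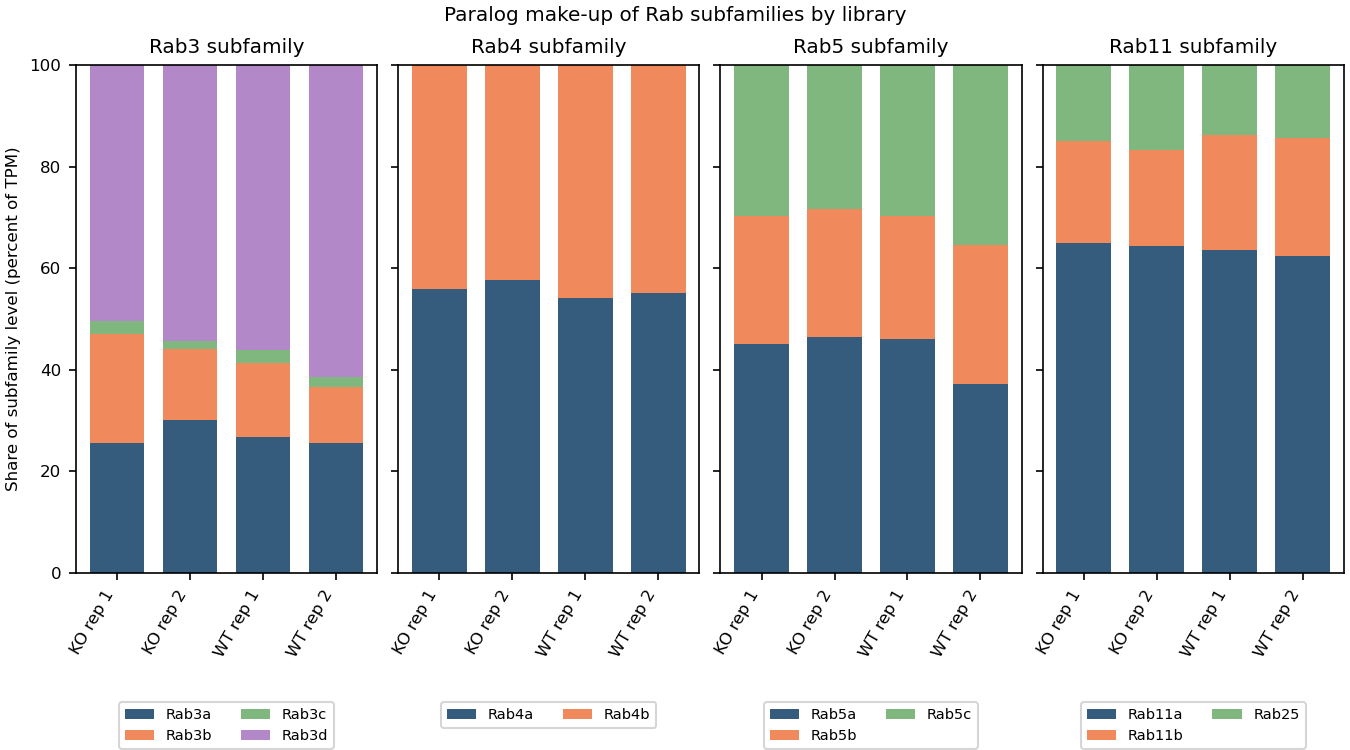
Share of each paralog in the summed TPM of its subfamily (percent, bars stacked to 100), for KO replicates 1 and 2 and WT replicates 1 and 2. Rab3d holds 50.4% to 61.3% of Rab3 and Rab11a 62.4% to 65.0% of Rab11, and each subfamily keeps its leading paralog in every library.

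The comparison of KO with WT asks whether loss of Tspan7 shifts expression of the vesicle traffic machinery. No Rab gene passed the threshold, an adjusted p under 0.05 in edgeR's quasi-likelihood test over 16924 genes. The count was 0 of 52, where the share over all genes was 0.00591% (Tspan7 alone). At an unadjusted p under 0.05 the count was again 0 of 52, where 1.55% of all genes passed as higher and 1.96% as lower, 3.51% in all. DESeq2 and limma-voom also gave 0 members by adjusted p, where they called 0.0355% and 0.00591% of all genes. By unadjusted p under 0.05 both again gave 0 members, where 1.43% and 3.36% of all genes passed. The smallest unadjusted p of a member was 0.0736 (Rab11b), and every member had an adjusted p of at least 0.9997.

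The members' log2 fold changes, KO over WT, had a median of -0.01 (0.003 over all tested genes), with 24 positive and 28 negative. They ran from -0.86 to 0.35. Their median size was 0.10, against 0.15 over all tested genes. The 95% confidence interval (CI) lay inside a doubling or halving, -1 to 1, for 45 of 52 members (71.2% of all genes) and inside -0.5 to 0.5 for 27 of 52 (30.3% of all genes). Members with few counts had the widest intervals. All genes were not matched to the members in level, where tested members stood at a median percentile of 70.5. The members' median SE was 0.17, against 0.22 over all tested genes. These comparisons therefore do not show the family to be unusually steady.

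In 6 members both KO libraries lay above both WT libraries (Rab14, Rab21, Rab36, Rab37, Rab40c and Rab5b), 11.5% of those tested where 15.3% of all genes did so. In 8 they lay below (Rab11b, Rab13, Rab30, Rab39, Rab5c, Rab8a, Rab8b and Rab9b), 15.4% where 15% of all genes did so. Both shares are near or under those of all genes, so they are no result about the family. The spread is shown by the interval plot.

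**Figure D3:**
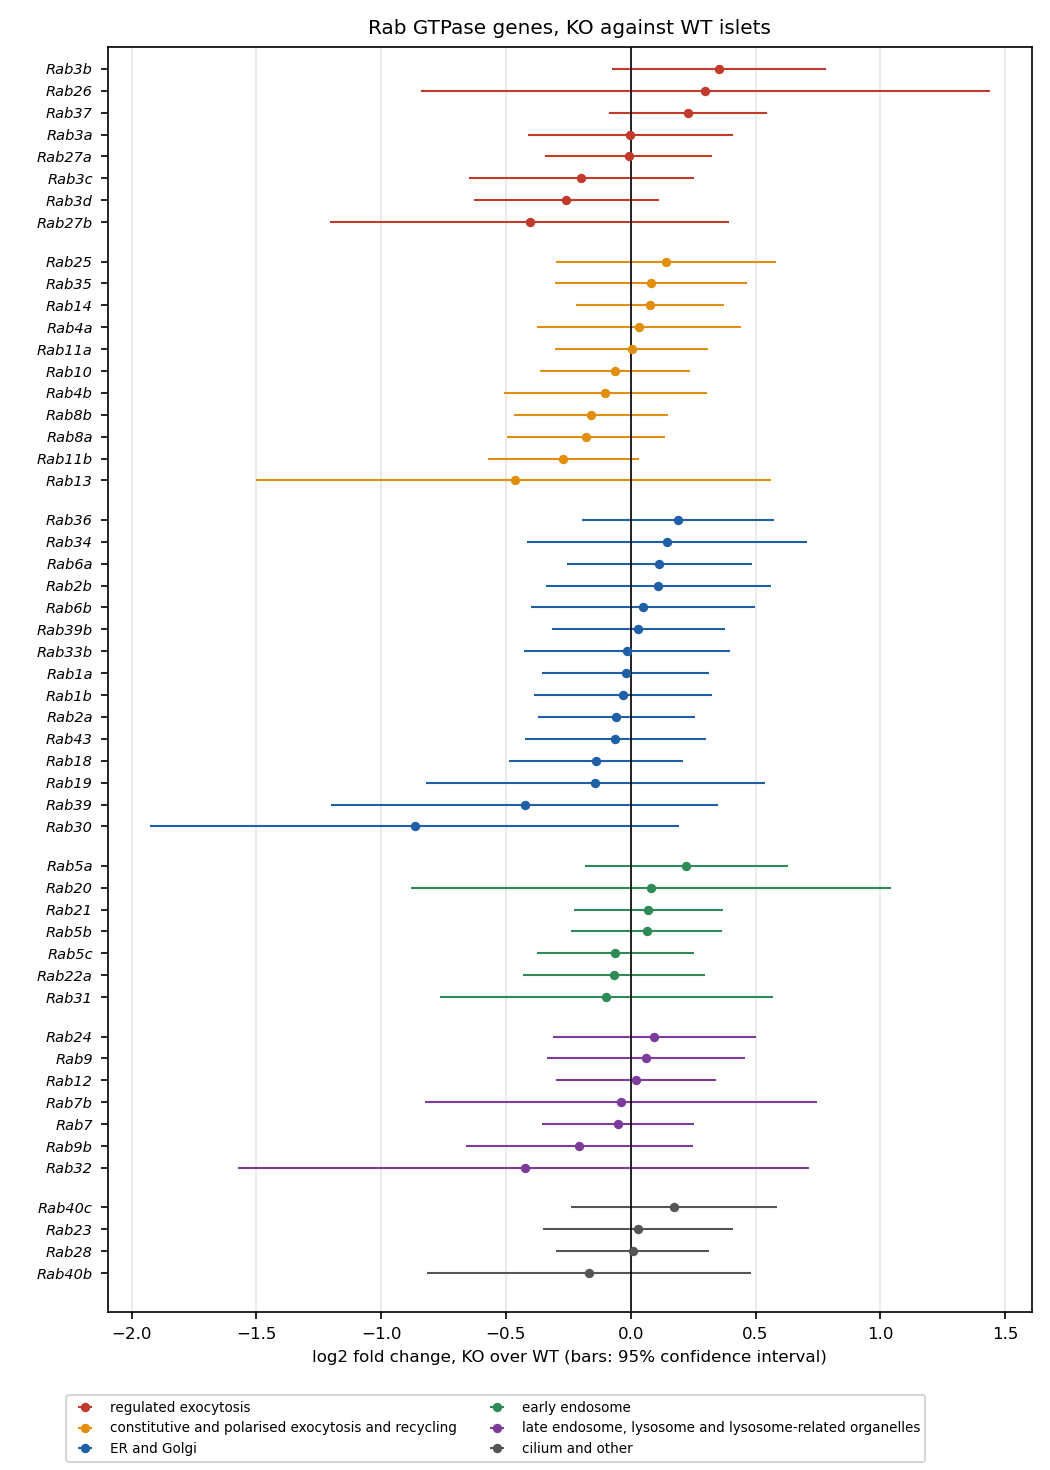
Fitted log2 fold change, KO over WT, of the 52 tested Rab genes, grouped and coloured by role; points are estimates and bars are 95% confidence intervals from the quasi-likelihood fit. Every interval includes 0, and the widest belong to members with few counts, such as Rab26 and Rab32, and to Rab30.

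The 8 Rabs of regulated exocytosis were all tested, and 0 passed. Their level summed to 421 and 406 TPM in KO, against 429 and 422 TPM in WT. Rab27a measured 280 and 306 CPM in KO, against 322 and 267 CPM in WT, CPM here and below being scaled between libraries with TMM factors. The WT values enclosed the KO values, and the log2 fold change was -0.01 ± 0.15 (SE; 95% CI -0.34 to 0.33). Rab3a measured 35.1 and 48.6 CPM in KO and 41.9 and 41.8 CPM in WT, with KO libraries on either side of WT (-0.002 ± 0.18, 95% CI -0.41 to 0.41).

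Rab3b had the highest fold change of the family. It measured 46.6 and 35.9 CPM in KO, against 36.2 and 28.6 CPM in WT. The groups overlapped, since KO replicate 2 lay just under WT replicate 1, and the log2 fold change was 0.35 ± 0.19 (95% CI -0.08 to 0.78, unadjusted p = 0.0950, edgeR adjusted p = 0.9997). It was 0.15 without KO replicate 1, 0.19 without WT replicate 2 and 0.53 without either other library.

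Rab3d pointed the other way without passing. It measured 130 and 166 CPM in KO, against 165 and 189 CPM in WT, and the groups overlapped narrowly. The overlap depends on the scaling, since in TPM Rab3d lay apart, at 88.3 and 96.3 in KO and 101 and 123 in WT. Its log2 fold change was -0.26 ± 0.16 (95% CI -0.63 to 0.11), -0.09 without KO replicate 1 and -0.44 without KO replicate 2. Its share of the Rab3 level, given above, was lower in both KO libraries than in both WT libraries. Shares within the Rab4, Rab9, Rab11, Rab39 and Rab40 subfamilies also lay apart between groups, so this is not particular to Rab3d. With 2 libraries a group no permutation test of such a share can pass, so the Rab3d share stands as a description.

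The remaining exocytic Rabs were lower in level. Rab37, found on secretory granules, measured 71.7 and 72.5 CPM in KO, against 65.1 and 57.8 CPM in WT. Both KO values exceeded both WT values (0.23 ± 0.14, 95% CI -0.09 to 0.55). Rab3c measured 19.0 and 14.98 CPM in KO and 21.2 and 18.0 CPM in WT, overlapping (-0.20 ± 0.20). Rab27b measured 3.74 and 3.98 CPM in KO and 3.67 and 6.48 CPM in WT. WT replicate 2 alone was high, and the value of -0.40 ± 0.35 became 0.07 without it. Rab26, known for granule maturation in exocrine cells, had 11 and 18 counts in KO and 11 and 14 in WT.

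Among 12 Rabs of constitutive exocytosis and recycling, 11 were tested and 0 passed, with a median of -0.06. Rab10 measured 194 and 206 CPM in KO and 213 and 205 CPM in WT (-0.06 ± 0.13, 95% CI -0.36 to 0.24). Rab11a measured 112 and 122 CPM in KO and 121 and 113 CPM in WT, almost the same pair of values (0.004 ± 0.13, 95% CI -0.30 to 0.31). Its paralog Rab11b measured 71.0 and 73.4 CPM in KO, against 88.3 and 85.9 CPM in WT, the groups lying apart. That gave the smallest p of the family (-0.27 ± 0.13, 95% CI -0.57 to 0.03, unadjusted p = 0.0736, edgeR adjusted p = 0.9997), in a gene that shares part of its sequence with a pseudogene.

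Rab8a and Rab8b, which carry vesicles from the Golgi to the surface and the cilium, had values close to each other. Rab8a measured 44.7 and 48.1 CPM in KO and 54.3 and 50.7 CPM in WT. Rab8b measured 42.9 and 42.4 CPM in KO and 48.0 and 47.3 CPM in WT. Their log2 fold changes were -0.18 ± 0.14 and -0.16 ± 0.13, and neither passed. Rab14, between Golgi and endosomes, stood at 0.08 ± 0.13, and Rab25, the epithelial member of the Rab11 subfamily, at 0.14 ± 0.19. Rab13, a Rab of tight junctions, had only 10 and 10 counts in KO and 13 and 16 in WT. The Rabs of rapid recycling stood at 0.03 ± 0.18 (Rab4a), -0.10 ± 0.18 (Rab4b) and 0.08 ± 0.17 (Rab35).

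Of 16 Rabs of the endoplasmic reticulum and Golgi, 15 were tested and 0 passed, with a median of -0.02. Rab2a measured 303 and 333 CPM in KO and 353 and 309 CPM in WT, and Rab1a 468 and 545 CPM in KO and 552 and 475 CPM in WT. In both genes the groups overlapped, and the fold changes were -0.06 ± 0.14 and -0.02 ± 0.15. Rab6a measured 302 and 285 CPM in KO and 309 and 234 CPM in WT, with the low value in WT replicate 2 (0.11 ± 0.16). Rab39b measured 92.1 and 103 CPM in KO and 105 and 86.3 CPM in WT (0.03 ± 0.15). The remaining X-linked members that were tested, Rab9 and Rab9b, stood at 0.06 ± 0.17 and -0.21 ± 0.20.

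Rab30, a Golgi Rab, had the lowest fold change of the family and rested on a single library. It had 51 and 13 counts in KO, against 51 and 67 in WT, or 5.30 and 1.72 CPM in KO and 6.03 and 7.12 CPM in WT. KO replicate 1 was close to the WT values while KO replicate 2 was far below. The log2 fold change was -0.86 ± 0.46 (95% CI -1.93 to 0.19), -1.92 without KO replicate 1 and -0.31 without KO replicate 2. Rab39 measured 2.39 and 3.18 CPM in KO and 4.14 and 3.29 CPM in WT (-0.42 ± 0.34). The other tested Rabs of these membranes ran from -0.14 (Rab19 and Rab18, a Rab of lipid droplets) to 0.19 (Rab36). Between them lay Rab43 at -0.06, Rab1b at -0.03, Rab33b, which also acts in autophagy, at -0.02, Rab6b at 0.05, Rab2b at 0.11 and Rab34 at 0.14, each with an interval across 0.

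Of 8 early endosome Rabs, 7 were tested and 0 passed, with a median of 0.06. Rab5a measured 154 and 166 CPM in KO and 160 and 114 CPM in WT, so that WT replicate 2 alone was low. Its log2 fold change was 0.22 ± 0.18 (95% CI -0.18 to 0.63), 0.48 without WT replicate 1 and -0.0002 without WT replicate 2. Rab5b and Rab5c stood at 0.06 ± 0.13 and -0.06 ± 0.14. Rab21, known for integrin traffic, measured 138 and 136 CPM in KO and 134 and 127 CPM in WT (0.07 ± 0.13). Rab31 measured 14.6 and 27.8 CPM in KO and 22.6 and 22.5 CPM in WT, the KO libraries lying on either side of WT. Its relative Rab22a stood at -0.07 ± 0.16 and Rab20 at 0.08 ± 0.42.

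Of 9 Rabs of late endosomes, lysosomes and related organelles, 7 were tested and 0 passed, with a median of -0.04. Rab7 measured 303 and 339 CPM in KO and 343 and 323 CPM in WT (-0.05 ± 0.13, 95% CI -0.36 to 0.25). Rab12 measured 65.2 and 57.3 CPM in KO and 59.5 and 61.3 CPM in WT (0.02 ± 0.14). Both genes overlapped between groups. Rab32, which serves lysosome-related organelles and is also found in macrophages, had 8 and 11 counts in KO and 11 and 16 in WT (-0.42 ± 0.50). The macrophage marker sums given above were lower in KO, and their part in the Rab32 value was not tested. Rab24, known from autophagy, stood at 0.10 ± 0.18 and Rab7b at -0.04 ± 0.34.

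Among 6 Rabs of the cilium and other roles, 4 were tested and 0 passed, with a median of 0.02. Rab28, known from photoreceptors, measured 53.3 and 51.96 CPM in KO and 53.2 and 51.4 CPM in WT (0.008 ± 0.13). Rab40c, which works with a ubiquitin ligase, measured 18.4 and 16.2 CPM in KO, against 15.6 and 15.1 CPM in WT (0.17 ± 0.18). Its paralog Rab40b stood at -0.17 ± 0.28, and Rab23, known from Hedgehog signalling, at 0.03 ± 0.17.

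Genes that act on or with Rabs were counted in 5 lists, and 0 members of any list passed. Over all genes tested, 8357 of 16924 had negative values. Of 8 genes of Rab delivery and prenylation, 7 had negative values (median -0.11, against 0.003 over all genes). Rabif, a Rab-binding protein, stood at -0.30 ± 0.21. It measured 30.3 and 19.6 CPM in KO, against 30.4 and 31.6 CPM in WT, so only KO replicate 2 was far below. Rabggta, a subunit of the prenylating enzyme, stood at -0.20 ± 0.19. Of 29 exchange factors tested, 16 were negative (median -0.02), with Dennd4a at 0.33 ± 0.19 and Hps4, an activator of Rab32 and Rab38, at 0.31 ± 0.18. Of 37 GTPase-activating proteins tested, 24 were negative (median -0.05). The smallest p-values of that list belonged to positive members, Rabgap1l at 0.29 ± 0.13 and Tbc1d5, which acts on Rab7, at 0.40 ± 0.19.

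The 12 tested effectors of Rab3 and Rab27 had a median of 0.03 and the only values at an unadjusted p under 0.05, 1 lower (1.96% of all genes) and 1 higher (1.55% of all genes). Mlph, which links Rab27a to a myosin motor, measured 11.9 and 14.6 CPM in KO, against 16.8 and 21.999 CPM in WT (-0.55 ± 0.21, unadjusted p = 0.0299, edgeR adjusted p = 0.9997). Rph3al, an effector of granule release, measured 114 and 112 CPM in KO, against 98.9 and 74.0 CPM in WT (0.39 ± 0.17, unadjusted p = 0.0476, edgeR adjusted p = 0.9997). Of 22 effectors of endosomal and recycling Rabs tested, 14 were negative (median -0.01), with the Rab5 effector Appl2 at 0.29 ± 0.14 and the Rab11 effector Rab11fip2 at 0.25 ± 0.15. The plot of the 5 lists shows each of these values beside those of the Rabs.

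**Figure D4:**
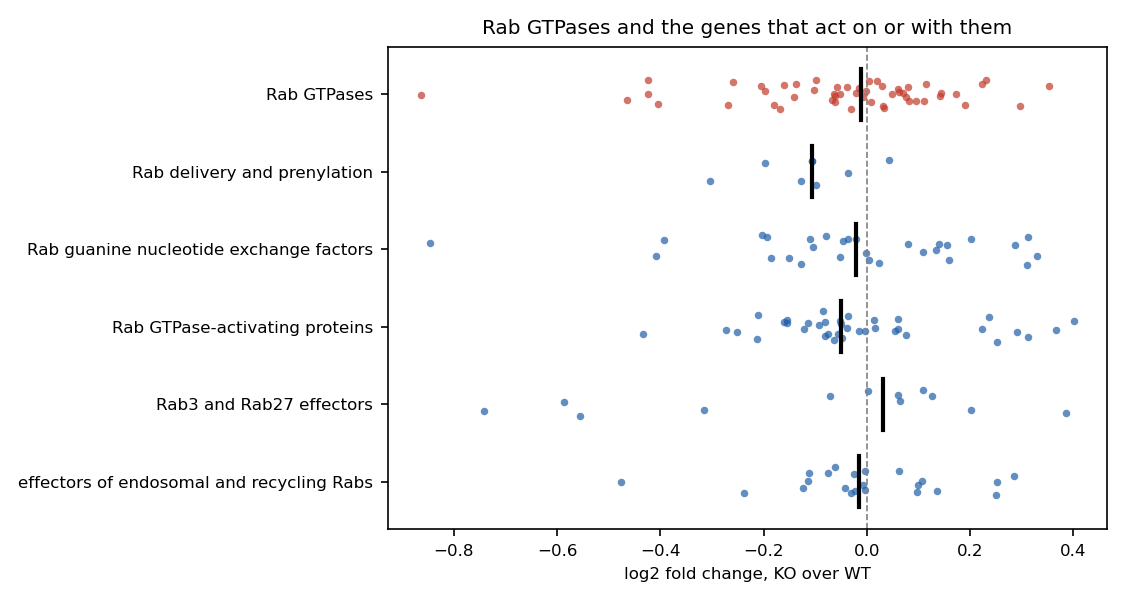
Fitted log2 fold change, KO over WT, of each tested gene (points, jittered vertically) for the Rab GTPases in red and 5 lists of genes that act on or with them in blue; thick black lines are list medians and the dashed line is 0. Medians run from -0.11 for Rab delivery and prenylation to 0.03 for Rab3 and Rab27 effectors.

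With 1 library left out, no Rab gene passed by adjusted p, but members at an unadjusted p under 0.05 differed. There were 1 without KO replicate 1 (Rab30, lower), 3 without KO replicate 2 (Rab3b, higher, and Rab31 and Rab3d, lower), 2 without WT replicate 1 (Rab3b and Rab5a, higher) and 0 without WT replicate 2. The share of all genes at that threshold was 4.61%, 2.997%, 8.01% and 2.58% in those comparisons.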

How the data were processed

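The authors deposited raw counts per Ensembl gene for 4 libraries. Per the submitters' processing notes they used HISAT2, featureCounts and the build GRCm39, with no versions named. Symbols came from GENCODE M21 (GRCm38), which matched 52403 of 52636 identifiers. M21 also gave exonic lengths, overlaps and coding sequences, and no coordinates are printed because the builds differ. Levels in TPM used the union of annotated exons as length and approximate the authors' gene models.

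Counts were tested in edgeR 4.0.16 (R 4.3.3) after filterByExpr (minimum count 10), TMM scaling and robust quasi-likelihood fitting, KO over WT, with no covariate and Benjamini-Hochberg adjustment over 16924 genes. Standard errors and intervals came from that fit. DESeq2 1.42.0, limma-voom 3.58.1, other scalings, no filter, leaving out each library and a replicate block were alternatives. In simulated counts the pipeline called 12%, 44%, 98% and 100% of genes changed 1.5-, 2-, 3- and 4-fold, and 22 of 149 calls were false. With that many calls the adjusted threshold is looser than in the data, where 1 gene was called. These percentages may thus be too high for the data.

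The KO pair and the WT pair differed by more than counting noise (13.3 and 12.9 as chi-square over its degrees of freedom), so neither was treated as 1 library deposited again. By the same measure KO replicates 1 and 2 stood at 7.08 and 7.15 from WT replicate 1, nearer than to each other. From WT replicate 2 they stood at 9.98 and 19.97. The libraries thus did not group by genotype over all genes. The intervals of fold changes came from the quasi-likelihood fit, so they cover the spread between libraries as well as counting error. Members and lists were chosen with earlier results of these data known. Members given with values in every library were the 10 of highest TPM, the Rab3 and Rab27 genes, the 2 highest of each role and the 3 largest fold changes in each direction at a mean log2 CPM of at least 1. Others with values were added as paralogs, or because their groups did not overlap, after their values were seen.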

Additional observations from a re-analysis of the deposited data

How the results depend on the processing

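The count of Rab genes called was 0 under every alternative run on all 4 libraries. The members' median log2 fold change (-0.012) ran from -0.065 to 0.011 with 1 library left out. Between replicates the spread of that median was 0.056 (SD). With 2 libraries a group, such a shift is tied to that spread, so comparing them is no test of stability. Over all genes, calls numbered 6 with DESeq2, 62 with no low-count filter, 6 with the replicate block, and 1 to 48 with 1 library left out (48 without WT replicate 1). Members at an unadjusted p under 0.05 numbered 2 of 59 with no filter (Rab3b and Rab30; 4.37% of all genes), 1 of 52 with the replicate block (Rab30; 3.13% of all genes) and 0 to 3 with 1 library left out. Same-numbered libraries deviated in opposite directions (correlation -0.30 over genes), and pairing the crossed numbers, added after seeing the data, called 2 genes in all, with 2 of 52 members at an unadjusted p under 0.05 (6.53% of all genes).

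Of the 21 members named by rule, directions held under other scalings and tests. With no filter Rab27a (0.0019) and Rab3a (0.010) turned from just under to just above 0. With 1 library left out, direction changed for Rab11a (-0.056 to 0.064), Rab12 (-0.074 to 0.11), Rab1a (-0.14 to 0.090), Rab27a (-0.14 to 0.13), Rab27b (-0.75 to 0.069), Rab28 (-0.018 to 0.031), Rab2a (-0.15 to 0.039), Rab39b (-0.10 to 0.17), Rab3a (-0.25 to 0.22), Rab5a (-0.0002 to 0.48), Rab6a (-0.074 to 0.33) and Rab7 (-0.14 to 0.029). The value moved by over 1.5 times, with no change of direction, for Rab10 (-0.11 to -0.018), Rab21 (0.031 to 0.11), Rab37 (0.15 to 0.32), Rab39 (-0.63 to -0.22), Rab3c (-0.38 to -0.042), Rab40c (0.078 to 0.26) and, as given above, Rab30, Rab3b and Rab3d. The cause was not tested. Of the 10 highest members, 9 or 10 were the same in each library alone, and 9 with longest-transcript lengths. At 2 libraries a group, the test called 12% of simulated 1.5-fold changes, a share that may be too high for these data. Depth and number thus limit what a missing call shows.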
